A study of Mus musculus with 12 samples.

Results

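The genes described are Cd34, Cd93, Adgrg1, Meis1, Hoxa9, Cd48, Sox4 and Myb, a set of haematopoietic stem and progenitor genes chosen by symbol, and they are 8 of the 33531 genes listed for each library. Cd34, Cd93 and Adgrg1 encode cell surface proteins found on stem and progenitor cells, and in several leukaemias the first of them marks the immature fraction. Hoxa9 and Meis1 encode homeodomain partners that sustain self-renewal and are switched off as myeloid cells mature, Sox4 and Myb encode transcription factors of immature cells, and Cd48 encodes a receptor of the SLAM family that long-term stem cells lack and committed progenitors carry. Cd34 and Cd93 are also made by endothelial cells, and Cd93 by monocytes and neutrophils.

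RNA was sequenced from mouse inv(16) acute myeloid leukaemia cells of the line CMM-tetON-shStat3, which carries a doxycycline-inducible hairpin against Stat3 and 2 fluorescent labels, GFP and mCh. The cells were engrafted into NSG mice, an immunodeficient strain without mature T, B and NK cells that keeps its own neutrophils, monocytes, macrophages and erythroid cells. Treatment began at about 1% leukaemia cells in blood, and GFP+mCh+ cells were sorted from spleen 1 day after its end. All 4 groups of 3 libraries hold the same hairpin line in the same host. The PBS group received the vehicle, the CpG1668 group an oligonucleotide agonist of Toll-like receptor 9, the Dox group doxycycline, and the CpG1668+Dox group both agents. The labels give 6 daily treatments and the design text gives 3 treatments on alternate days, no group received doxycycline without the hairpin, and the labels do not say if each library stands for its own mouse, so p-values cover only the spread between libraries, which may be technical.

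Values are RPKM, read numbers scaled to gene length and sequencing depth, and the estimated depth was 30450000 to 35030000 reads per library. Stat3, the hairpin's target, was 17.2 ± 0.576 RPKM (SD, n = 3) in PBS, 18.9 ± 0.173 in Dox, 18.2 ± 0.483 in CpG1668 and 19.4 ± 0.331 in CpG1668+Dox, so its RNA was not lower in the libraries labelled Dox or CpG1668+Dox. It was called higher than PBS in both (log2 change 0.13, adjusted p = 0.0439 by limma in Dox, and 0.16, adjusted p = 0.0068 in CpG1668+Dox), and every direction given for those libraries refers to their labels. Differences were tested with limma on log2(RPKM + 1) across the 12167 genes with a mean of at least 1 RPKM, and a gene was called at a Benjamini-Hochberg adjusted p under 0.05. Cd93, Cd48, Adgrg1 and Myb passed that minimum. Cd93, at a mean of 0.390 RPKM in PBS, did so only through the treated groups, so its entry into this fit depends on the difference tested. Cd34, Hoxa9, Sox4 and Meis1 did not pass the minimum, and their tests come from the same fit over all 33531 listed genes. Because 1 is added before the logarithm, the log2 change of such a low gene is far smaller than its ratio of RPKM, and both are given.

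Cd34, Sox4 and Hoxa9 were near the lower limit of detection in PBS and several-fold higher in CpG1668+Dox, and Cd93 was higher in each treated group than in PBS. Cd48 was slightly higher in CpG1668+Dox than in PBS. Adgrg1 and Myb, which were abundant, and Meis1, which was low, passed no test in any of the 7 comparisons. Against PBS, 1 of the 8 genes was called in Dox, 3 in CpG1668 and 5 in CpG1668+Dox, all of them higher. The share of all genes called higher was 3.95% in Dox, 3.06% in CpG1668 and 9.13% in CpG1668+Dox among genes above the minimum, and 0.79%, 1.25% and 5.54% among all listed genes.

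**Figure D1:**
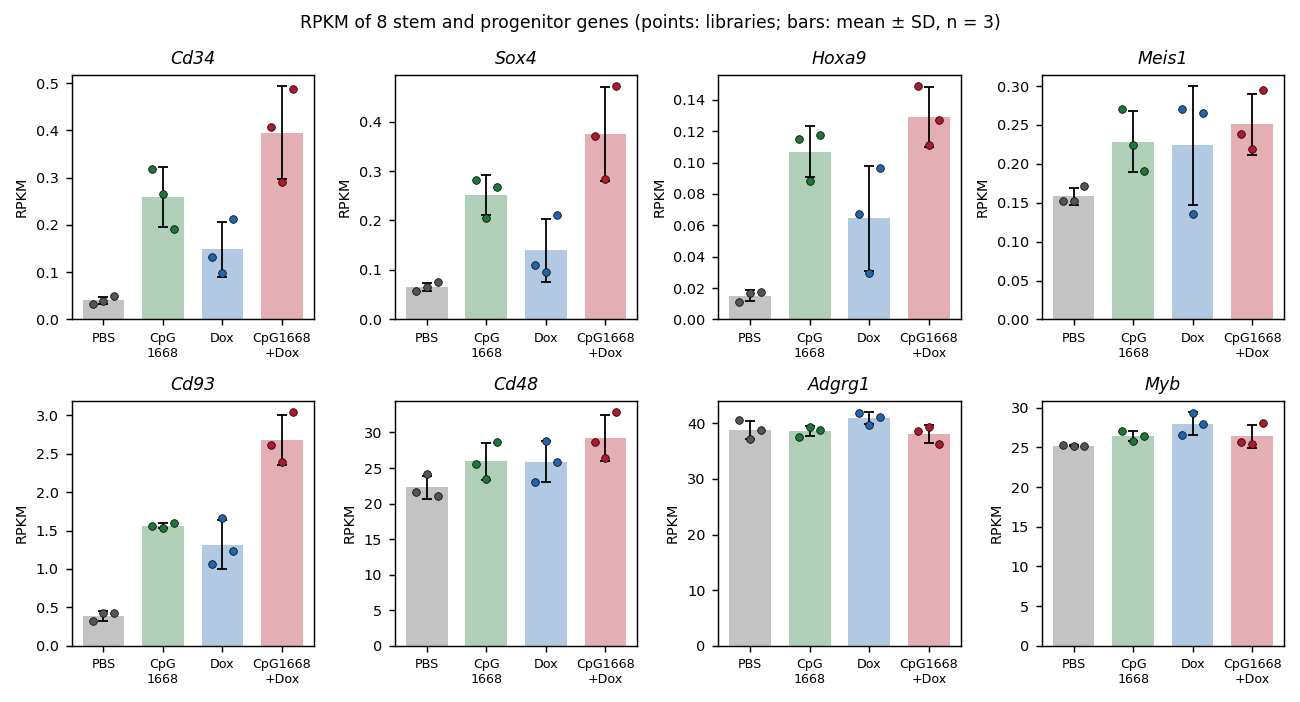
RPKM of the 8 genes in the 4 groups, with 1 point per library and bars for the mean ± SD (n = 3), on axes that start at 0 and differ in scale between panels. Cd34, Sox4, Hoxa9 and Cd93 were lowest in the PBS libraries, and Adgrg1 stayed between 36.3 and 41.8 RPKM in every library.

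Cd34 encodes a sialomucin of stem and progenitor cells and lies at chr1:194938819-194961279 on the plus strand (GRCm38, GENCODE M21). Its level in PBS was 0.0336, 0.0385 and 0.0491 RPKM, and 38.6% of listed genes had a lower PBS mean. CpG1668 libraries held 0.317, 0.266 and 0.192 RPKM of Cd34, Dox libraries 0.133, 0.0990 and 0.213, and CpG1668+Dox libraries 0.406, 0.291 and 0.487. Every treated library lay above every PBS library, whereas the CpG1668 and CpG1668+Dox values overlapped, as did the CpG1668 and Dox values. The group means of Cd34 were 0.0404 ± 0.0079 RPKM in PBS, 0.148 ± 0.0585 in Dox, 0.258 ± 0.0631 in CpG1668 and 0.395 ± 0.0985 in CpG1668+Dox (SD, n = 3), and the treated means were 3.67, 6.40 and 9.78 times the PBS mean in that order.

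The limma change of Cd34 on the log2(RPKM + 1) scale was 0.42 (SE 0.0567, adjusted p = 0.0019) for CpG1668+Dox against PBS and 0.27 (adjusted p = 0.0498) for CpG1668 against PBS. Dox against PBS gave 0.14 (adjusted p = 0.334) and was not called. The CpG1668+Dox call was kept in all 12 fits that left out 1 library each, with adjusted p from 0.0011 to 0.0105. The CpG1668 call was kept in 2 of those 12 fits, those without CpG1668+Dox 2 and without CpG1668+Dox 3, and its adjusted p reached 0.145 without CpG1668 1. CpG1668+Dox exceeded Dox by 0.28 (adjusted p = 0.0433), a call kept in 3 of the 12 fits, and exceeded CpG1668 by 0.15 (adjusted p = 0.341), which was not called.

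For Cd34, Sox4 and Hoxa9, 1 multiplier per gene turned all 12 RPKM values into whole numbers to within 0.05. No multiplier within 0.05 was found for Meis1. Reads were not counted whole for every gene, as Trbc2 had a highest PBS value of 1.74e-35 RPKM, far below 1 read. If those of Cd34, Sox4 and Hoxa9 were counted whole, the whole numbers are the smallest read numbers that the values allow (a common multiple of them is equally possible). For Cd34 these were 8, 9 and 11 reads in the PBS libraries, 72, 67 and 49 in CpG1668, 31, 22 and 49 in Dox, and 100, 72 and 110 in CpG1668+Dox. Summed and scaled to depth, CpG1668+Dox held 9.75 times the Cd34 reads of PBS, with an exact 95% interval of 6.60 to 14.9. The ratio to PBS was 6.37 (4.27 to 9.84) for CpG1668 and 3.70 (2.42 to 5.84) for Dox. CpG1668+Dox held 1.53 times the Cd34 reads of CpG1668 (1.27 to 1.85). These intervals take the printed numbers as the reads and cover counting error alone, not the spread between libraries. They would be wider if the true numbers were lower. The multipliers of Cd34 and Hoxa9, 7296 and 5584 bases, match no annotated transcript length and exceed their longest, 3063 and 3226 bases. The true numbers of Cd34 and Hoxa9 may therefore be lower than those printed. Over their longest transcripts, 3 reads correspond to 0.0280 to 0.0322 RPKM of Cd34 and 0.0266 to 0.0305 of Hoxa9. The PBS libraries held 0.0336 to 0.0491 RPKM of Cd34 and 0.0110 to 0.0175 of Hoxa9. The multiplier of Sox4, 4798 bases, is within 3 of its annotated 4795.

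**Figure D2:**
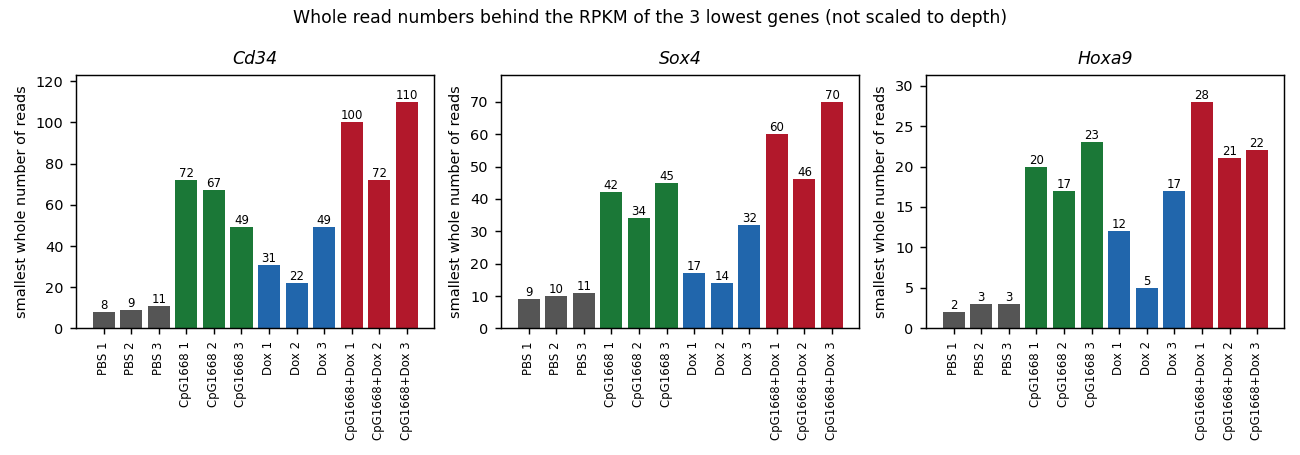
Smallest whole read number for Cd34, Sox4 and Hoxa9 in each of the 12 libraries, coloured by group and not scaled to depth. Cd34 ranged from 8 reads in PBS 1 to 110 in CpG1668+Dox 3, and Hoxa9 from 2 to 28. The true read numbers of Cd34 and Hoxa9 may be lower.

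Sox4 encodes an HMG-box transcription factor of early lymphoid and myeloid progenitors that can drive leukaemia when overproduced, and its single-exon gene lies at chr13:28948919-28953713 on the minus strand. It was at 0.0574, 0.0650 and 0.0746 RPKM in PBS, at 0.281, 0.205 and 0.268 in CpG1668, at 0.111, 0.0958 and 0.211 in Dox, and at 0.371, 0.283 and 0.471 in CpG1668+Dox. Each group of treated libraries lay above PBS without overlap, and CpG1668+Dox lay above CpG1668 and above Dox without overlap. The mean of Sox4 rose from 0.0657 ± 0.0086 RPKM in PBS to 0.375 ± 0.0943 in CpG1668+Dox (SD, n = 3), a ratio of 5.71, with a log2 change of 0.37 (SE 0.0528, adjusted p = 0.0028). CpG1668, at 3.83 times the PBS mean, gave 0.23 (adjusted p = 0.0676), and Dox, at 2.12 times, gave 0.10 (adjusted p = 0.546). Neither was called, and the CpG1668 difference became a call with a pseudocount of 0.1 in place of 1 (log2 change 1.08, adjusted p = 0.0315). CpG1668+Dox was called above Dox with a log2 change of 0.27 (adjusted p = 0.0364), a call kept in 2 of 12 fits without 1 library. The smallest read numbers summed to 30 in PBS, 63 in Dox, 121 in CpG1668 and 176 in CpG1668+Dox, and the depth-scaled ratio of the last to the first was 5.68 (exact 95% interval 3.84 to 8.67).

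Hoxa9 encodes a homeodomain factor of stem cells whose continued activity blocks myeloid maturation, and it lies at chr6:52223100-52231089 on the minus strand. PBS libraries held 0.0110, 0.0168 and 0.0175 RPKM of Hoxa9, the lowest levels of the 8 genes. CpG1668 libraries held 0.115, 0.0883 and 0.118 RPKM, Dox libraries 0.0673, 0.0294 and 0.0965, and CpG1668+Dox libraries 0.149, 0.111 and 0.127. No treated library fell to the PBS level, and Dox 2 was nearest to it. As the smallest whole reads, taken with the multiplier above, these were 2, 3 and 3 in PBS, 20, 17 and 23 in CpG1668, 12, 5 and 17 in Dox, and 28, 21 and 22 in CpG1668+Dox. The depth-scaled ratio of Hoxa9 reads to PBS was 7.11 (exact 95% interval 3.39 to 17.2) for CpG1668, 4.32 (1.96 to 10.8) for Dox and 8.60 (4.13 to 20.7) for CpG1668+Dox. The limma change was called for CpG1668+Dox (0.15, SE 0.0219, adjusted p = 0.0026, kept in all 12 fits without 1 library) and for CpG1668 (0.12, adjusted p = 0.0259). The CpG1668 call was lost without any 1 of PBS 1, PBS 2, PBS 3, CpG1668 1 or CpG1668 3, with adjusted p up to 0.0941. For Hoxa9, CpG1668+Dox differed from CpG1668 by 0.03 (adjusted p = 0.691) and from Dox by 0.09 (adjusted p = 0.111). Even in CpG1668+Dox, Hoxa9 was at 0.129 ± 0.0189 RPKM (SD, n = 3).

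Meis1, the homeodomain partner of Hoxa9, lies at chr11:18879817-19018985 on the minus strand and stayed low. It was at 0.152, 0.152 and 0.171 RPKM in PBS, 0.270, 0.225 and 0.191 in CpG1668, 0.270, 0.136 and 0.265 in Dox, and 0.239, 0.219 and 0.295 in CpG1668+Dox. The CpG1668 and CpG1668+Dox libraries lay above PBS, and Dox 2 lay below it. The ratio of Meis1 means to PBS was 1.58 for CpG1668+Dox, and its log2 change of 0.11 (95% interval 0.01 to 0.21, adjusted p = 0.211) was not called.

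Among all 6578 genes with a mean of 0.05 to 0.5 RPKM, a mean at least 2-fold above PBS was found for 15.9% in Dox, 17.9% in CpG1668 and 20.8% in CpG1668+Dox. Cd34, Sox4 and Hoxa9 were among the genes past that ratio in each of the 3 groups, and Meis1 was not.

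The 250 bases before and 50 after the annotated start of Cd34, Sox4 and Hoxa9, the low genes called in CpG1668+Dox, are shown because these genes were higher in the same libraries (RefSeq, GRCm38.p6). The Hoxa9 window lies inside the gene span given above, so its RefSeq start differs from the upstream end of the GENCODE span. Capitals mark matches on either strand to AGGAAG, an ETS core motif, and in Cd34 also to GATAAG, which is bound by erythroid and stem cell factors of the GATA family.
Cd34 promoter, chr1:194938571-194938870, plus strand: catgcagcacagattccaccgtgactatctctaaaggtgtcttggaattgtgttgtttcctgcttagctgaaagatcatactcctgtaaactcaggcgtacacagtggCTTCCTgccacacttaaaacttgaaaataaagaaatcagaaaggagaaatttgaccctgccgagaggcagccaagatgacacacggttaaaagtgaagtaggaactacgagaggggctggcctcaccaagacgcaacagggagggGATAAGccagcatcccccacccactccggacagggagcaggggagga
Sox4 promoter, chr13:28953650-28953949, minus strand: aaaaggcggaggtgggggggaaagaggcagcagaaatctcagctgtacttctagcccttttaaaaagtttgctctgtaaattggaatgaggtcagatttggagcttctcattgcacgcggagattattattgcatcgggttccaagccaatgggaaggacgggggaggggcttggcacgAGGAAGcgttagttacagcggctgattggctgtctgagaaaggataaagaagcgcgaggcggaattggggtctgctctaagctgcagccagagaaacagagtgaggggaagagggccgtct
Hoxa9 promoter, chr6:52227321-52227620, minus strand: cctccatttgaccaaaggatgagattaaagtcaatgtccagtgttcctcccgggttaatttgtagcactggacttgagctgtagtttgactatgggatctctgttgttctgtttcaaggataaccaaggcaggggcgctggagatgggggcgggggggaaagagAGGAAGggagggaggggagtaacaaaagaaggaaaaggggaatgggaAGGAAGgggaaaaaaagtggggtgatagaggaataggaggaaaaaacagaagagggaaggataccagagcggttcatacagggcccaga

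In the Cd34 window the ETS match lay 142 bases before the start, on the minus strand, and the GATA match began at base 4 after it. Sox4 held 1 ETS match, at -71, and Hoxa9 held 2, at -86 and -39. Cd48 also held 1, at base 26 after the start. Both strands were searched for 6 motifs in the 8 windows found for 7 of the 8 genes. The ETS motif was present in 35.4% of the 32851 mouse promoters of this length and the motif of the GATA family in 7.4%, and no 2 matches overlapped. The MYB motif AACTGNC, present in 12.8% of promoters, matched in both Adgrg1 windows. The STAT motif TTCNNNGAA (8.3% of promoters), the C/EBP motif TTGCNNAA (10.8% of promoters) and the paired IRF element (3.4% of promoters) matched in none of the 8 windows, which says only that those letters are not in these 300 bases.

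Cd93 encodes a C-type lectin-like surface glycoprotein, known in the mouse as the antigen of the AA4.1 antibody, and lies at chr2:148436640-148443563 on the minus strand. Its level was 0.316, 0.425 and 0.428 RPKM in PBS, 1.56, 1.53 and 1.59 in CpG1668, 1.06, 1.67 and 1.23 in Dox, and 2.61, 2.39 and 3.04 in CpG1668+Dox. The PBS libraries were lowest and the CpG1668+Dox libraries highest without overlap, and the CpG1668 and Dox libraries lay between and overlapped each other. Taken with the single annotated transcript of Cd93, these values correspond to 69 to 91 reads in PBS, 324 to 373 in CpG1668, 226 to 339 in Dox and 542 to 627 in CpG1668+Dox. The means were 0.390 ± 0.0638, 1.56 ± 0.0312, 1.32 ± 0.314 and 2.68 ± 0.328 RPKM (SD, n = 3), which put CpG1668 at 4.0, Dox at 3.38 and CpG1668+Dox at 6.87 times PBS.

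Cd93 was called in 5 of the 6 pairwise comparisons. Its log2 change against PBS was 0.88 (SE 0.0949, adjusted p = 2.9e-04) in CpG1668, 0.73 (adjusted p = 0.0023) in Dox and 1.40 (adjusted p = 2.3e-06) in CpG1668+Dox. CpG1668+Dox exceeded Dox by 0.67 (adjusted p = 0.0019). It exceeded CpG1668 by 0.52 (adjusted p = 0.0150), and that call was lost without CpG1668 1, CpG1668 2, CpG1668+Dox 1 or CpG1668+Dox 3, with adjusted p up to 0.07. CpG1668 and Dox differed by 0.15 (95% interval -0.06 to 0.36, adjusted p = 0.495). The interaction, which asks whether the change with both agents departs from the sum of the separate changes, was -0.21 for Cd93 (95% interval -0.51 to 0.08, adjusted p = 0.857).

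**Figure D3:**
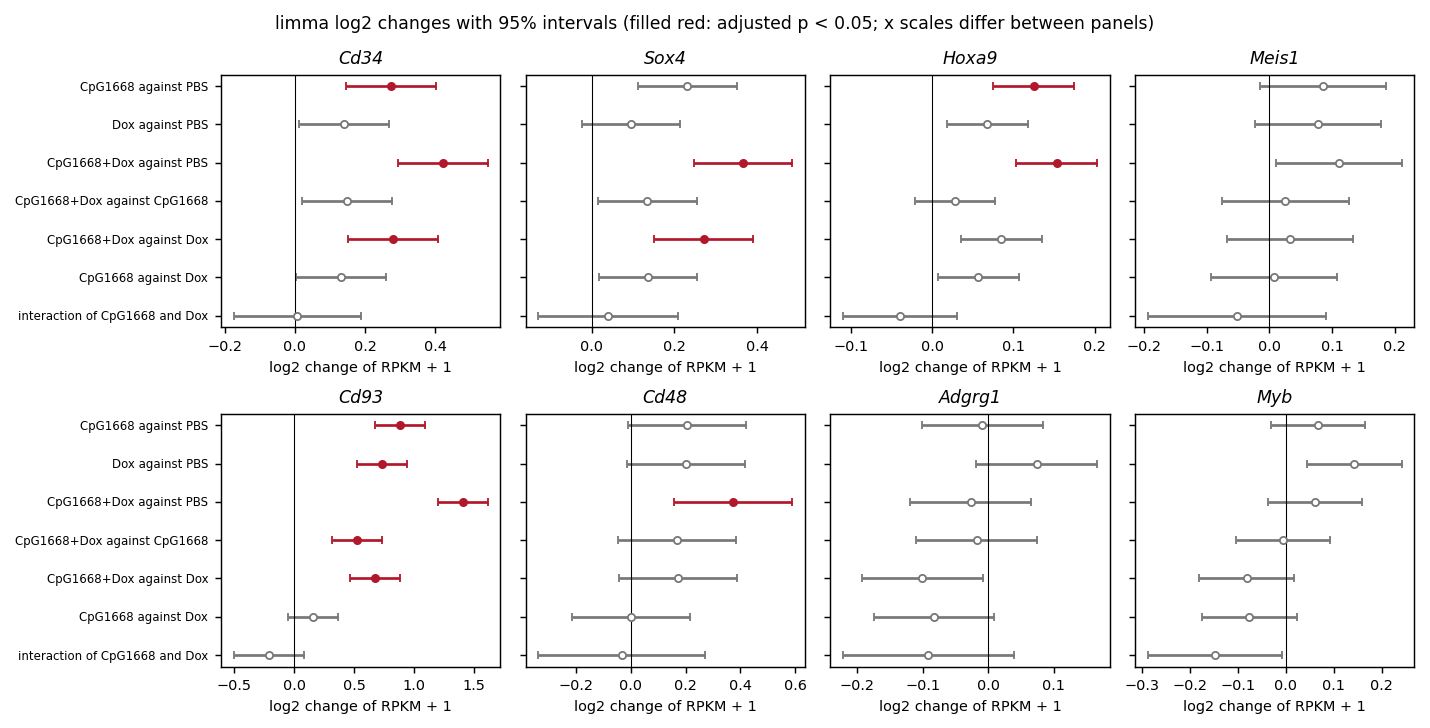
limma changes of the 8 genes on the log2(RPKM + 1) scale with 95% intervals in the 6 pairwise comparisons and the interaction, filled red where the adjusted p was under 0.05, with x axes that differ between panels. Cd93 was called in 5 pairwise comparisons, Cd34 in 3, Sox4 and Hoxa9 in 2 each, Cd48 in 1, and no gene in the interaction.

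Cd48, at chr1:171682009-171705258 on the plus strand, was abundant, with 92.9% of listed genes below it in PBS. It was at 21.7, 24.2 and 21.1 RPKM in PBS, 25.5, 23.5 and 28.7 in CpG1668, 23.0, 28.8 and 25.9 in Dox, and 28.6, 26.4 and 32.8 in CpG1668+Dox. CpG1668+Dox lay above PBS without overlap, and the remaining groups overlapped their neighbours. The mean of Cd48 rose from 22.3 ± 1.61 to 29.3 ± 3.24 RPKM (SD, n = 3) from PBS to CpG1668+Dox, a ratio of 1.31 and a log2 change of 0.37 (SE 0.0982, adjusted p = 0.0245). The call was lost without PBS 1, PBS 3, CpG1668+Dox 1 or CpG1668+Dox 3 (adjusted p up to 0.0926) and in the fit over all listed genes (adjusted p = 0.0711). CpG1668 and Dox, each 25.9 RPKM on average, were not called against PBS.

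Adgrg1 encodes the adhesion receptor GPR56, a surface marker of human leukaemia stem cells, and lies at chr8:94974751-95014217 on the plus strand. It was the most abundant of the 8 genes, at 40.5, 37.2 and 38.7 RPKM in PBS, 37.6, 39.3 and 38.8 in CpG1668, 41.8, 39.7 and 41.2 in Dox, and 38.7, 39.3 and 36.3 in CpG1668+Dox. Its CpG1668 and CpG1668+Dox libraries overlapped those of PBS, and its Dox libraries overlapped PBS through PBS 1. The change of Adgrg1 in CpG1668+Dox against PBS was -0.03 (95% interval -0.12 to 0.07, adjusted p = 0.721), an interval that holds no change larger than 0.12 on the log2 scale. CpG1668+Dox lay below Dox by 0.10 without overlap, which was not called (adjusted p = 0.308).

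Myb encodes the transcription factor c-MYB, which immature myeloid cells need to proliferate, and lies at chr10:21124935-21160984 on the minus strand. Its level was 25.3, 25.2 and 25.2 RPKM in PBS, 27.1, 25.8 and 26.5 in CpG1668, 26.6, 29.4 and 28.0 in Dox, and 25.6, 25.5 and 28.1 in CpG1668+Dox. All 9 treated libraries lay above the 3 PBS libraries, whose SD was 0.0819 RPKM. The differences were small: 0.14 for Dox against PBS (95% interval 0.04 to 0.24, adjusted p = 0.0945), 0.07 for CpG1668 (adjusted p = 0.455) and 0.06 for CpG1668+Dox (adjusted p = 0.397). Without Dox 1 the Dox difference was called (0.18, adjusted p = 0.0469).

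The order of the means was PBS, Dox, CpG1668 and CpG1668+Dox from lowest to highest for 6 genes, namely Cd34, Sox4, Hoxa9, Meis1, Cd93 and Cd48. The Dox and CpG1668 means were nearly equal for Cd48 (25.90 and 25.92 RPKM) and Meis1 (0.224 and 0.229 RPKM). Between Dox and CpG1668, which are neighbours in the order of the 6 genes, none of the 8 genes was called. There 0.353% of genes above the minimum and 0.0775% of all listed genes were called higher in CpG1668. Between CpG1668 and CpG1668+Dox, 1 of the 8 genes was called, against 3.07% and 0.856% of genes called higher. Between Dox and CpG1668+Dox, 3 were called, against 2.81% and 1.71%. Adgrg1 ran CpG1668+Dox, CpG1668, PBS and Dox, and Myb PBS, CpG1668+Dox, CpG1668 and Dox, with no neighbours called in either. The interaction was called for none of the 8 genes, with an unadjusted p under 0.05 for Myb alone (0.0388), and for 0% of the genes above the minimum and 0.0358% of all listed genes. The libraries of CpG1668+Dox lay wholly above those of PBS for 7 of the 8 genes, where 12.7% of all listed genes did so. The same held for 6 genes in CpG1668 (9.01% of all listed genes) and 5 in Dox (9.87%). Only 12167 of the 33531 listed genes were above the minimum, beside 4 of the 8 genes, so these shares are a loose comparison.

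Within CpG1668+Dox most of the genes ranked the libraries alike, and within Dox they did not. CpG1668+Dox 2 was the lowest of its group for 7 of the 8 genes, all but Adgrg1, and CpG1668+Dox 3 was the highest for 6. Dox 2 was the lowest of its group for Cd34, Sox4, Hoxa9 and Meis1 and the highest for Cd93, Cd48 and Myb. By the mean absolute difference of centred log2(RPKM + 1) over the 12 libraries, the genes with the pattern most like Cd93 were Tpd52 (0.0617), Irf8 (0.0647) and Kctd12 (0.0750), out of 9636 genes. Irf8, a transcription factor of monocyte and dendritic cell development, had means of 0.376 ± 0.0802, 1.61 ± 0.0536, 1.17 ± 0.0685 and 2.89 ± 0.614 RPKM (SD, n = 3) in PBS, CpG1668, Dox and CpG1668+Dox. On this scale a low gene resembles abundant genes of much smaller fold change, as Dxo, nearest to Cd34, went from 22.0 ± 0.996 RPKM in PBS to 28.8 ± 1.36 in CpG1668+Dox. For Cd34 they were Dxo (0.0425), Wls (0.0438) and Rere (0.0466), for Sox4 Wdr41 (0.0335), Ppt1 (0.0408) and Prdm2 (0.0414), for Hoxa9 Vps11 (0.0234), Uggt1 (0.0259) and Tnip1 (0.0267), and for Cd48 Hcls1 (0.0472), Nrros (0.0510) and Cnksr3 (0.0555).

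Of 18 other stem cell transcription factors 16 were above the minimum, and in CpG1668+Dox against PBS 1 was called higher and 6 lower, where 6.4% of all genes tested were lower. Their median log2 change was -0.15, beside 0.00 over all genes tested. Fli1, an ETS factor, was higher at 26.2 ± 0.527 against 24.1 ± 0.472 RPKM. Lmo2, a bridging protein of stem cell transcription complexes, fell from 88.6 ± 2.98 to 65.5 ± 1.49 RPKM (SD, n = 3, log2 change -0.43, adjusted p = 9.4e-04). Gfi1b, a transcriptional repressor made in the erythroid and megakaryocytic lineages, fell from 70.9 ± 3.39 to 56.5 ± 1.65 RPKM (-0.32, adjusted p = 8.7e-04). Hlf (-0.29, adjusted p = 0.0051) and Tal1 (-0.15, adjusted p = 0.0134) also fell, as did Erg and Zfpm1. Several of these factors also act in erythroid and megakaryocytic cells, and 13 of 15 erythroid markers, Gata1 and Car2 among them, were lower in the same comparison (median -0.49). Their part in the lower stem cell factors was not tested. In CpG1668 against PBS 5 were lower and 0 higher, with a median of -0.12 beside -0.01 over all genes, of which 2.83% were lower. They were Erg (-0.31, adjusted p = 0.0160), Tal1, Gata2, Hlf and Gfi1b. In Dox against PBS 1 of the 16 was called, Lmo2, which was lower (-0.35, adjusted p = 0.0104), as were 2.04% of all genes. In CpG1668+Dox against Dox 4 were lower (Gfi1b, Gata2, Hlf and Tal1), beside 0.666% of all genes, and in CpG1668 against Dox 1 was lower (Gata2), beside 1.21%. Between CpG1668+Dox and CpG1668 none of the 16 was called.

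Among 20 other stem and progenitor surface genes, 11 were above the minimum, and 2 were called higher and 0 lower in CpG1668+Dox against PBS (median -0.01), where 9.13% of all genes tested were higher and 6.4% lower. Cxcr4, the receptor that holds stem cells in the marrow and is also made by mature leukocytes, had means of 2.10 ± 0.162, 8.47 ± 0.357, 5.47 ± 0.320 and 14.2 ± 3.31 RPKM (SD, n = 3) in PBS, CpG1668, Dox and CpG1668+Dox and was called in all 6 pairwise comparisons. Its log2 change in CpG1668+Dox against PBS was 2.27 (adjusted p = 4.0e-07). Cd9, a tetraspanin of stem cells and megakaryocytes, rose from 0.802 ± 0.192 RPKM in PBS to 2.01 ± 0.475 in Dox and 2.66 ± 0.663 in CpG1668+Dox, and its CpG1668 mean of 1.00 ± 0.119 RPKM was not called against PBS. Cd9 passed the minimum only through the treated groups, so the count of surface genes called is partly set by the minimum. Kit, the stem cell factor receptor, stayed at 17.6 ± 1.10, 16.5 ± 0.569, 18.4 ± 1.92 and 18.1 ± 0.899 RPKM in the same order of groups, with no call. Flt3, a receptor of multipotent progenitors, was below the minimum, at 0.109 ± 0.0220 RPKM in PBS and 0.315 ± 0.0795 in CpG1668+Dox.

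Of 18 genes reported for the HOXA9 and MEIS1 programme (cofactors, cluster neighbours and known targets), 9 were above the minimum. In CpG1668+Dox against PBS 2 were higher, Zeb2 (log2 change 0.29, adjusted p = 0.0011) and Pbx2 (0.17, adjusted p = 0.0178), and 2 were lower, Lmo2 and Erg, with a median of -0.04, beside 9.13% higher and 6.4% lower over all genes tested. CpG1668 and Dox against PBS each gave 1 lower call, Erg (median -0.03) and Lmo2 (median 0.05), and 0 higher, where 2.83% and 2.04% of all genes were lower. Below the minimum, Hoxa7, the cluster neighbour of Hoxa9, was at 0.0256 ± 0.0072 RPKM in PBS, 0.0480 ± 0.0252 in Dox, 0.162 ± 0.0885 in CpG1668 and 0.201 ± 0.0149 in CpG1668+Dox, while Hoxa10 did not exceed a group mean of 0.0156. Mef2c, a myeloid and lymphoid transcription factor, was at 0.0349 ± 0.0170 RPKM in PBS and 0.324 ± 0.0461 in CpG1668+Dox.

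**Figure D4:**
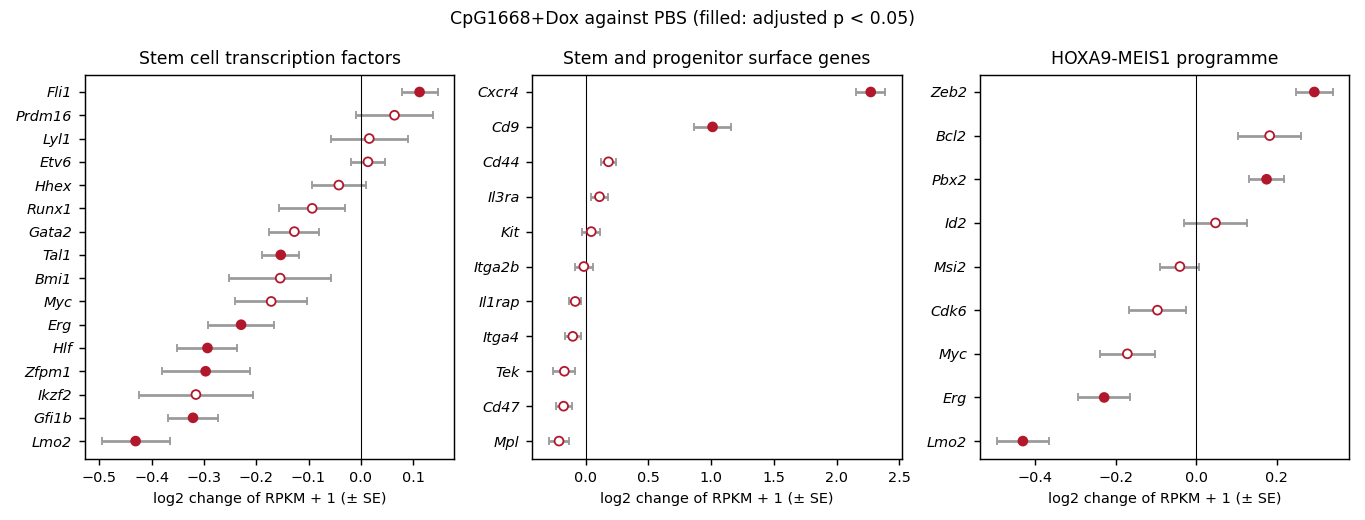
limma log2 changes of RPKM + 1 with their SE for CpG1668+Dox against PBS in stem cell transcription factors, stem and progenitor surface genes and the HOXA9-MEIS1 programme, filled where the adjusted p was under 0.05. Lmo2 at -0.43 was the lowest of the transcription factors, and Cxcr4 at 2.27 the highest of the surface genes.

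Of 19 paralogs of the 8 genes found 8 were above the minimum, and in CpG1668+Dox against PBS Adgrg3, an adhesion receptor of granulocytes, was higher (0.58, adjusted p = 0.0143), with a median of -0.03 over the 8. Sox12, the close relative of Sox4, was lower in CpG1668 than in PBS (-0.22, adjusted p = 0.0034) and than in Dox (-0.25, adjusted p = 0.0074). Podxl, the sialomucin related to CD34, was at 94.2 ± 2.24 RPKM in PBS and 88.8 ± 3.40 in CpG1668+Dox, a difference that was not called. Thbd, the thrombomodulin gene that neighbours Cd93 in its protein family, was below the minimum, at 0.0879 ± 0.0373 RPKM in PBS, 0.303 ± 0.151 in Dox, 0.492 ± 0.0251 in CpG1668 and 0.880 ± 0.0717 in CpG1668+Dox. Of the 11 SLAM family genes found, only Cd84 was above the minimum and it was not called, while Cd244a, the gene of the CD48 ligand 2B4, was at 0.236 ± 0.0350 RPKM in PBS and 1.31 ± 0.210 in CpG1668+Dox. Slamf1, which marks long-term stem cells, had group means of 0.0495 to 0.0755 RPKM.

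Markers of mature myeloid cells were higher in the same libraries as Cd34, Sox4, Hoxa9 and Cd93. All 17 of 17 monocyte markers above the minimum (19 listed, led by Lyz2, Psap and Ctss) were called higher than PBS in each of CpG1668, Dox and CpG1668+Dox. Their summed level was 90.5 to 121 RPKM in PBS, 263 to 291 in CpG1668, 218 to 306 in Dox and 487 to 670 in CpG1668+Dox. Late neutrophil markers (14 of 15 above the minimum, led by S100a9, S100a8 and Ngp) were called higher for 9, 14 and 14 of 14, and summed to 109 to 222, 654 to 852, 588 to 2342 and 1747 to 4577 RPKM. In CpG1668+Dox the late neutrophil sum was 3077, 1747 and 4577 RPKM in libraries 1, 2 and 3 and the monocyte sum 561, 487 and 670. Cd34, Sox4, Cd93, Cd48, Meis1 and Myb ranked these libraries in the same order, and Hoxa9 and Adgrg1 did not. In Dox the late neutrophil sum was 588, 1315 and 2342 RPKM and the monocyte sum 218, 306 and 285. Cd93, Cd48 and Myb ranked the Dox libraries as the monocyte sum did, while Cd34, Sox4 and Hoxa9 were highest in Dox 3 and lowest in Dox 2. In CpG1668 both sums were highest in library 3 (852 and 291 RPKM), in which Cd34 and Meis1 were lowest and Cd93, Cd48 and Hoxa9 were highest. Primary granule genes, made by promyelocytes, were higher for 5, 5 and 6 of 7, with Mpo at 2.26 ± 0.141, 47.8 ± 4.92, 17.4 ± 6.16 and 86.9 ± 32.8 RPKM (SD, n = 3) in PBS, CpG1668, Dox and CpG1668+Dox. In that order the list summed to 303 to 353, 419 to 480, 340 to 396 and 476 to 687 RPKM. It was led by Calr, at 300 ± 24.2 RPKM in PBS and 311 ± 16.7 in CpG1668+Dox, which was not called. Over all genes tested 3.06%, 3.95% and 9.13% were called higher in CpG1668, Dox and CpG1668+Dox. The minimum is a mean over all 12 libraries, and some markers passed it only through the treated groups. Examples are the monocyte marker Klf4 (0.393 RPKM in PBS, 4.64 in CpG1668+Dox), Mmp8 of late neutrophils (0.622 and 8.66) and Prtn3 of primary granules (0.940 and 35.8). The counts called in these lists are therefore partly set by the minimum. Fewer cells of a type and less RNA per cell cannot be told apart in these bulk libraries, and the part of each cell type in the changes of Cd34, Sox4, Hoxa9 and Cd93 was not tested.

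Endothelial markers, taken because endothelial cells also make Cd34 and Cd93, summed to 41.9 to 46.9 RPKM in PBS, 42.9 to 46.2 in CpG1668, 43.7 to 45.9 in Dox and 43.5 to 45.8 in CpG1668+Dox. Of 14 listed 4 were above the minimum and none was called, Egfl7, Plvap and Tek made up most of the sum, the defining gene Emcn was listed below 0.01 RPKM in every library, and no group mean of the defining gene Cdh5 exceeded 0.0358 RPKM. Pecam1, which endothelial cells share with leukocytes, was at 0.362 ± 0.0891 RPKM in PBS and 1.83 ± 0.166 in CpG1668+Dox. B cell markers, of which Ighm alone was above the minimum, summed to 1.05 to 1.26, 3.92 to 4.82, 2.73 to 3.20 and 6.92 to 10.4 RPKM in PBS, CpG1668, Dox and CpG1668+Dox, and Ms4a1, Pax5 and Cr2 were below 0.01 RPKM in every library. Splenic macrophage markers summed to 18.6 to 32.5, 28.1 to 41.2, 28.6 to 35.1 and 33.3 to 52.9 RPKM in the same order, with Adgre1 as the only call. Adgre1, at 0.802 RPKM in PBS, and Ighm, at 0.461, passed the minimum only through the treated groups. T and NK cell markers summed to 12.2 to 17.5, 15.2 to 16.7, 15.2 to 18.4 and 13.5 to 23.7 RPKM. Nkg7, at a mean of 15.4 RPKM over the 12 libraries, made up most of these sums. No group mean of the defining T cell gene Cd3e exceeded 0.0101 RPKM. Cd3d, another T cell gene below the minimum, rose from 0.0399 ± 0.0433 RPKM in PBS to 0.466 ± 0.111 in CpG1668+Dox (SD, n = 3). Its Dox mean was 0.276 ± 0.0602 RPKM, above the CpG1668 mean of 0.144 ± 0.111. Lck, also below the minimum, was at 0.538 ± 0.103 RPKM in PBS and 0.436 ± 0.0171 in CpG1668+Dox.

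The erythroid markers ran the other way. They summed to 15430 to 20360 RPKM in PBS, 6886 to 11210 in CpG1668, 4054 to 8333 in Dox and 4023 to 6668 in CpG1668+Dox, led by Hbb-bs, Hba-a2 and Hba-a1. In CpG1668, Dox and CpG1668+Dox 4, 7 and 13 of 15 were called lower than in PBS, beside 2.83%, 2.04% and 6.4% of all genes tested. Mast cell and basophil markers, led by Fcer1a, Cpa3 and Ms4a2, summed to 1377 to 1539 RPKM in PBS, 1416 to 1512 in CpG1668, 1503 to 1865 in Dox and 1671 to 1730 in CpG1668+Dox. Of 9 above the minimum 3 were called higher in CpG1668+Dox than in PBS, beside 9.13% of all genes tested. They were Mcpt8 (0.326 ± 0.130 to 2.53 ± 0.339 RPKM, adjusted p = 1.7e-04), Prss34 (0.425 ± 0.207 to 3.25 ± 0.325 RPKM) and Cpa3. Mcpt8 and Prss34 passed the minimum only through the treated groups, so this count is partly set by the minimum. Megakaryocyte markers summed to 161 to 204 RPKM over the 12 libraries, and none of 5 was called. These sums describe the sorted cells of this line together with any host cells in the sort.

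**Figure D5:**
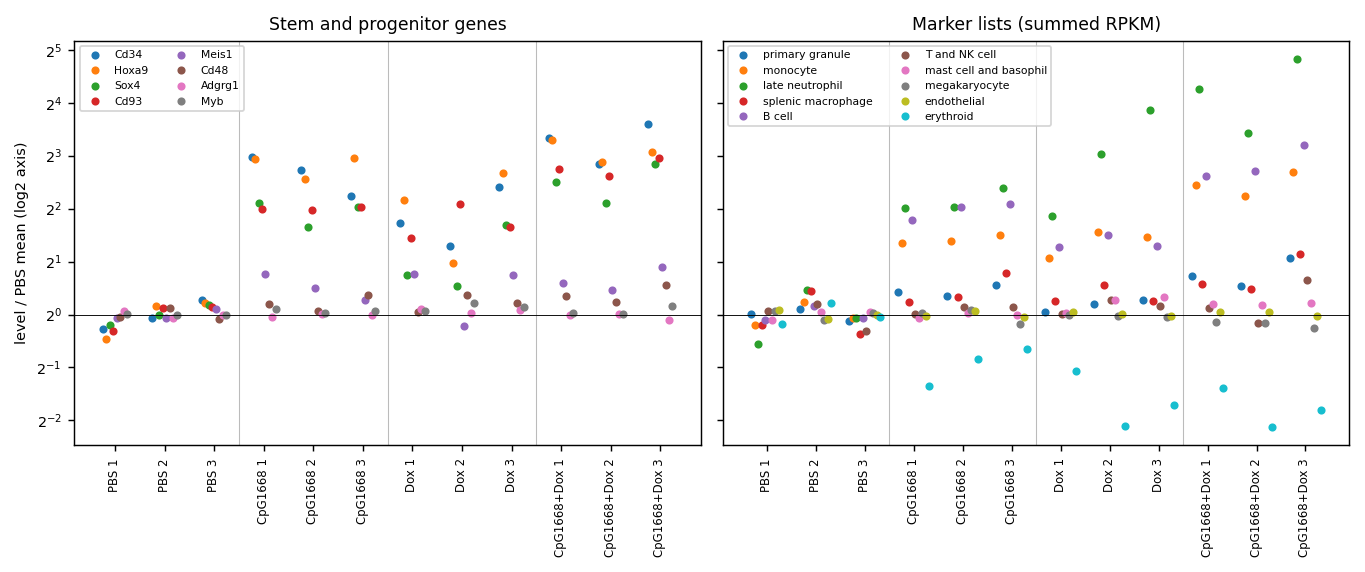
Level of each of the 8 genes (left) and summed RPKM of each marker list (right) in every library, divided by the PBS mean, on a log2 axis. Cd34 in CpG1668+Dox 3 and the late neutrophil sum in the same library were the highest points of their panels, and the endothelial sum stayed near the PBS mean.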

How the data were processed

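The authors deposited, for each of 12 libraries, RPKM values for 33531 gene symbols, so depth was estimated from the RPKM steps. Per the submitters' processing notes, the tools named were STAR 2.7.9 and Partek 7.18.0723 with mm10. With the annotation, strand setting and counting rule not given in the sources used here, reads of Cd34, Cd48, Hoxa9, Myb, Meis1 and Sox4 cannot be told apart from those of genes that overlap them.

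From the RPKM, limma 3.58.1 (R 4.3.3) fitted 4 group means to log2(RPKM + 1) with a mean-variance trend, for genes with a mean of at least 1 RPKM. Of the 8 genes 4 fell below that minimum and were taken from the planned fit without it. No 2 libraries were identical. The 8 genes and all lists were chosen with earlier results of these data known, and 1 gene of the HOXA9 and MEIS1 list is not reported here. Genes named from the lists were called genes, at most 4 per comparison by the size of the moderated statistic, and at most 3 marker genes per list by level. Genes of like pattern were the 3 nearest to a called gene among genes above the minimum, without predicted models. Genes from the same lists that were named below the minimum, and Fli1, Erg and Zfpm1 in CpG1668+Dox, Gfi1b in CpG1668, Kit, Cd84, Podxl, Cdh5, Pecam1, Klf4, Mmp8 and Prtn3, were chosen after their values were seen. Gene positions are from GENCODE M21 and promoters from RefSeq. The limma scripts were tested on simulated data, and the alternatives are a pseudocount of 0.1, other minimums, 2 scalings, fewer groups, a replicate block and each library left out.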

Additional observations from a re-analysis of the deposited data

How the results depend on the processing

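Over 1049 alternative values for the 8 genes, 954 kept their direction and side of the threshold, 53 lost a call, 9 gained one and 33 changed sign, all of the last among differences that were not called. The calls of Cd93 against PBS in all 3 treated groups, and those of Cd34, Sox4 and Hoxa9 in CpG1668+Dox against PBS, held in every alternative run that tested the gene. Cd93 was not tested with a minimum of 5 RPKM. Replicate numbers did not pair the libraries (18 same-number pairs correlated from -0.207 to 0.268, and 3 of 12 libraries correlated best with their own number). With the replicate block 78 genes were called between CpG1668 and Dox in place of 190, and of the low genes Cd34 lost its CpG1668+Dox against Dox call (adjusted p = 0.0801), leaving 1, and its CpG1668 against PBS call (0.0887), while Sox4 gained the latter (0.0468). The PBS levels of Hoxa9 and Cd34 rest on few reads, and each group has 3 libraries. As the smallest whole numbers these reads were 2 to 3 and 8 to 11 per library, and they may be fewer, since reads were not counted whole for every gene.

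With a minimum of 5 RPKM, 455, 382, 1155, 185 and 180 genes were called in CpG1668, Dox and CpG1668+Dox against PBS and in CpG1668+Dox against CpG1668 and against Dox, with 0, 0, 1, 0 and 0 of the 4 more abundant genes, since Cd93 is left out. With no minimum 434 genes were called in Dox against PBS, 658 in CpG1668+Dox against Dox, 102 in CpG1668 against Dox and 12 for the interaction, and 1 of the abundant genes in CpG1668+Dox against PBS. Fitting only the groups compared gave 355, 257, 216 and 72 genes for Dox against PBS, CpG1668+Dox against CpG1668 and against Dox, and CpG1668 against Dox. Cd34 and Sox4 lost their CpG1668+Dox against Dox calls, leaving 0 of the low genes, with a pseudocount of 0.1, quantile normalization or only the groups compared. The cause was not tested. Under quantile normalization 42.1% of CpG1668+Dox against PBS calls were higher in place of 58.8%, 51.5% in place of 65.9% for Dox, and 82.3% in place of 94.0% for CpG1668+Dox against CpG1668. For CpG1668 against Dox the share was 36.4% under median-of-ratios scaling in place of 22.6%.

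Leaving out 1 library gave 367 to 762 genes for CpG1668 against PBS, 313 to 774 for Dox, 133 to 459 for CpG1668+Dox against CpG1668, 258 to 429 against Dox, 33 to 236 for CpG1668 against Dox and 0 to 1 for the interaction. The abundant genes called were 1 to 2 for Dox against PBS, 1 to 2 for CpG1668+Dox against PBS and 0 to 1 for CpG1668+Dox against CpG1668, and the low genes 0 to 3 for CpG1668 against PBS and for CpG1668+Dox against Dox. Changes of sign, none of them called, were as follows. Adgrg1 in CpG1668 against PBS was 0.0049 with median-of-ratios scaling, 0.024 with quantile normalization and -0.038 to 0.022 with 1 library left out, which also gave -0.056 to 0.0072 in CpG1668+Dox against PBS and -0.040 to 0.016 against CpG1668. Left-out libraries gave Myb -0.049 to 0.019 in CpG1668+Dox against CpG1668, and Cd48 -0.076 to 0.078 in CpG1668 against Dox and -0.116 to 0.043 for the interaction. Meis1 in CpG1668+Dox against Dox and in CpG1668 against Dox was -0.0033 and -0.011 with quantile normalization, and -0.020 to 0.061 and -0.046 to 0.035 with libraries left out. The interaction of Cd93 was -0.78 with a pseudocount of 0.1 (adjusted p = 0.471) and 0.040 with quantile normalization. It was -0.34 for Cd34 with a pseudocount of 0.1 (also with the minimum of 0.05 RPKM, chosen after seeing the data), -0.019 with quantile normalization and -0.041 to 0.061 with libraries left out, and for Sox4 -0.079 with a pseudocount of 0.1 and -0.011 to 0.088 with libraries left out.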
